A study of Mus musculus with 4 samples.

Results

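The genes described here are the expressed members of the mouse Zfp family of zinc finger genes. They were taken from a table of gene levels in mouse embryonic stem (ES) cells as every row with a single symbol made of Zfp and digits. They were selected on their measured level, which had to reach 5 FPKM in the higher of the control and knockdown conditions, where FPKM is a fragment count scaled to transcript length and to the number of mapped fragments. Zfp42 and Zfp352 were set aside by name. This left 166 genes of the 27542 rows in the table, and of 321 rows (314 symbols) with such a name. Of the remaining named rows, 154 were below 5 FPKM and 6 of these were listed at 0 in both conditions. The choice used the levels of both conditions, so the levels of these genes are given as a description without a test of the group.

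Total RNA of the mouse ES cell line TBV2, cultured in serum and LIF (with feeders and at high density, by the series description), was sequenced. The control, labelled N.T., was 1 library, and the knockdown was 3 clones with reduced T-UCstem1, an ultraconserved noncoding RNA that is also labelled uc.170. The 3 clones were combined by the authors into 1 FPKM per gene, so that neither condition has an SD and values per clone were not analysed here. The only p-values are those of the authors' deposited Cuffdiff table, in which the spread between control cultures was not measured because there was 1 control library.

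Most Zfp genes encode C2H2 zinc finger proteins, in which pairs of cysteines and histidines fold short loops around zinc and successive fingers read the DNA sequence. Many also carry a KRAB box, which recruits TRIM28 (KAP1) and the histone methyltransferase SETDB1 to silence retroelements and to protect the methylation of imprinted loci in ES cells. Genes of the KRAB type lie in clusters of duplicated copies, and their proteins differ mostly in their fingers. The symbol Zfp also covers proteins with CCCH or other fingers that act on RNA, ribosomes or chromatin.

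Zfp229, the 1 member called in the authors' deposited table, lies in such a cluster on chromosome 17. The first C2H2 finger of Zfp229 is printed with the first fingers of the 3 members of its cluster that have the most bases in common with it there. First fingers were compared base by base without gaps, and they need not be corresponding fingers of the proteins. Each line is the coding strand, 5′ to 3′, of 63 bases from a GENCODE M21 transcript, with the codons of the 2 cysteines and 2 histidines in capitals.
Zfp229: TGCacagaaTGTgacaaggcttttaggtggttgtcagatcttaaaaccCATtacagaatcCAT
Zfp760: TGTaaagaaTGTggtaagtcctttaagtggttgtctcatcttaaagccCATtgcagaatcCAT
Zfp820: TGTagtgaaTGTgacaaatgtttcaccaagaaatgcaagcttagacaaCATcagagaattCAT
Zfp945: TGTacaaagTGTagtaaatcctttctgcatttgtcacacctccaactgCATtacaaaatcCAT
Zfp760 has 52 of the 63 bases in common with Zfp229 (82.5%), Zfp945 has 41 (65.1%) and Zfp820 has 38 (60.3%). The first fingers of the 5 cluster members not printed have between 50.8% (Zfp948) and 54.0% (Zfp51) in common with it. The finger spans residues 259 to 279 of the 705-residue Zfp229 protein, which holds 16 fingers and a KRAB-like box.

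The ES cell markers Pou5f1, Nanog, Sox2, Esrrb and Klf4 summed to 2085 FPKM in control and 2130 FPKM in knockdown cells, with 3 of their 6 rows higher and 0 marked in the authors' deposited table. Pou5f1 made up the largest share, at 1036 and 1078 FPKM, while Sox2 was at 257 and 216 FPKM and the higher row of Esrrb at 240 and 211 FPKM. Markers of primitive endoderm (Gata6, Gata4, Sox17 and Sox7) were higher in the knockdown in 4 of 4 cases and all 4 were marked in the authors' deposited table, at 7.32 FPKM summed in the control and 39.4 FPKM in the knockdown. Of 7 feeder fibroblast markers 6 were higher, from 7.40 FPKM summed to 15.7 FPKM, and Lum was listed at 0 in both conditions. None of the 7 was marked in the authors' deposited table. Thy1 made up the largest share, at 5.08 and 7.06 FPKM, with Col1a1 at 0.920 and 3.63 FPKM and Col1a2 at 1.12 and 4.03 FPKM. The part of these cells in the levels below was not tested, and in bulk RNA fewer cells of a type and less RNA per cell cannot be told apart. The depth is not stated. The commonest low value in the control was 0.0325 FPKM times kb of transcript, which, if it is the worth of 1 fragment, would put the counting error of the members' control levels between 0.734% and 7.73%, with a median of 2.98%.

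The expressed Zfp genes were at nearly the same level with and without the knockdown. Their median was 10.2 FPKM in control and 10.1 FPKM in knockdown cells, and 71 of the 166 genes (42.8%) were below 10 FPKM in both conditions. On the scale log2((knockdown FPKM + 1)/(control FPKM + 1)), called log2 fold from here on, their median was -0.01, with quartiles of -0.17 and 0.17. The 8574 other genes with 1 symbol at 5 FPKM had a median of 0.01 and quartiles of -0.16 and 0.19, so the middle 50% of both sets spanned nearly the same range. The knockdown level was the higher in 80 members (48.2%) and the lower in 86. Across all 8740 genes with 1 symbol at the same minimum, 51.2% were higher in the knockdown.

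Few members moved far. By the mark of the authors' deposited table, 0 members were higher and 1, Zfp229, was lower, where 1.35% and 0.275% of all genes at 5 FPKM were marked in these directions. A deposited p below 0.05 was held by 4 members, which are Zfp229, Zfp488, Zfp365 and Zfp800, and by 8.34% of all genes. A log2 fold past 1.5-fold was seen in 3 members in the upward direction and 1 in the downward direction, against a background of 5.23% and 3.63%. Past 2-fold there were 0 members upward and 1 downward, against 2.52% and 0.549% of all genes. The level stayed within 1.25 times on this scale in 136 members (81.9%) and in 6342 of the 8574 other genes (74.0%). The SD of the log2 fold over genes, which far values weigh on, was 0.26 for members and 0.48 for the other genes, and without Zfp229 the members' SD was 0.24.

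**Figure D1:**
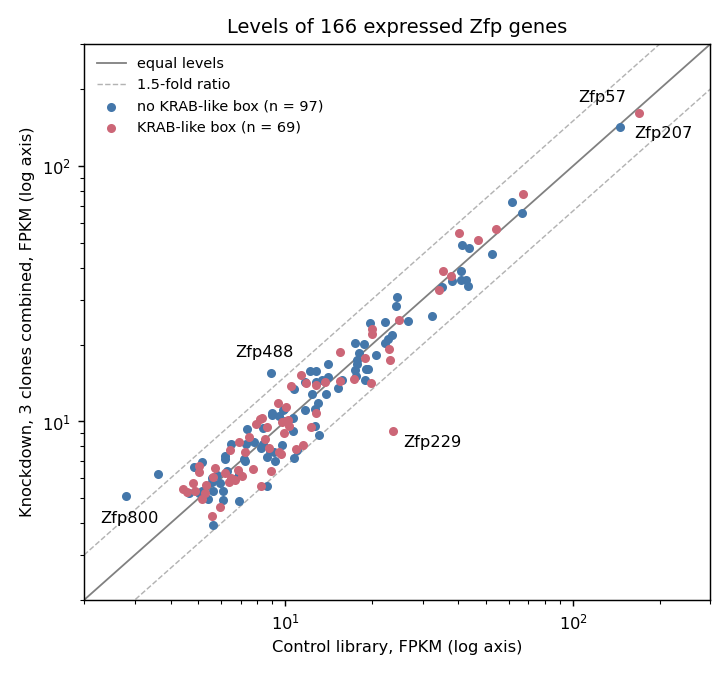
Each point is 1 of the 166 Zfp genes, with its FPKM in the control library on the x axis and in the 3 combined knockdown clones on the y axis, both logarithmic. The solid line marks equal levels and the dashed lines a 1.5-fold ratio of FPKM without pseudocount. Zfp229 lies alone below the lower line in the range above 10 FPKM, at 23.6 and 9.18 FPKM.

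The SD was also compared among genes of like abundance. At 5 to 10 FPKM the SD over genes was 0.25 for 71 members and 0.51 for 2041 other genes. At 10 to 20 FPKM it was 0.27 for 57 members and 0.43 for 2408 others, and at 20 to 200 FPKM it was 0.29 for 38 members and 0.48 for 3773 others. The quartiles did not follow the SD in each range: at 10 to 20 FPKM they were -0.20 and 0.22 for members and -0.17 and 0.15 for the others. These are descriptions over genes, which are not replicates. The 23 expressed Zbtb genes, another zinc finger family whose proteins carry a BTB domain, had an SD of 0.32 and a median log2 fold of -0.03, and 0 of them were marked in the authors' deposited table. Of all genes at 5 FPKM, 1.35% were marked higher and 0.275% lower.

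Zfp229, a KRAB zinc finger gene at chromosome 17, 21870690 to 21886327 (mm9), was at 23.6 FPKM in control and 9.18 FPKM in knockdown cells. Its log2 fold, with the pseudocount of 1, was -1.27, and the ratio of the FPKM values themselves was 0.389. The authors' deposited Cuffdiff table gives it p = 5e-05 and q = 0.00815. That p is the smallest in the table and is shared by 95 rows. Zfp229 ranked 26th of the 166 genes by control level and 94th by knockdown level. Its control level would correspond to about 3138 fragments on a transcript of 4315 bases. Only 0.141% of the 50-base windows of its transcripts occur in another gene, so little of its sequence is shared. No other row of the table overlaps its locus.

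**Figure D2:**
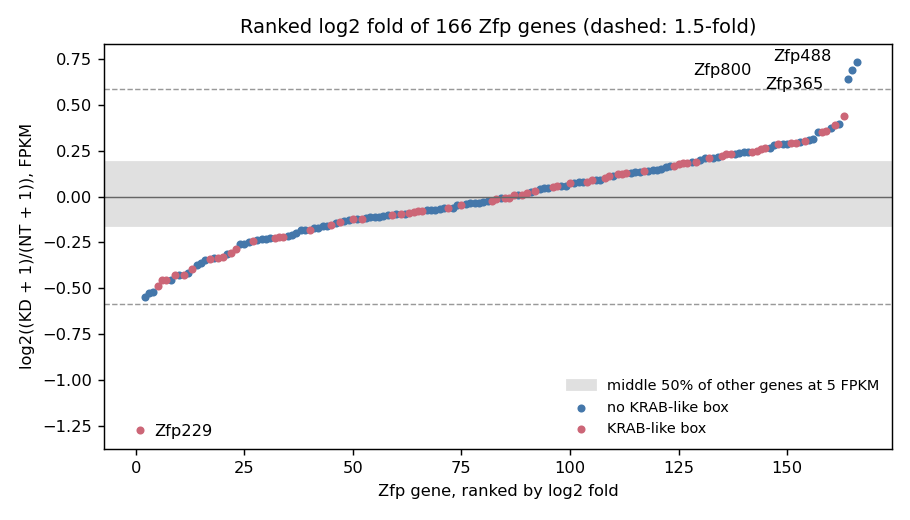
The 166 Zfp genes are ranked by log2 fold on the y axis, coloured by whether a KRAB-like box was found, with dashed lines at 1.5-fold and a grey band for the middle 50% of the 8574 other genes. Zfp229 stands at -1.27, and the next lowest gene is Zfp395 at -0.55. Zfp488, Zfp800 and Zfp365 lie above the upper dashed line.

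The named neighbours of Zfp229 were at closer levels in both conditions. Within 500 kb to either side, 11 other named rows reached 1 FPKM, with log2 folds between -0.27 and 0.41 and a median of 0.08. Of these, 9 were higher in the knockdown and 0 were marked in the authors' deposited table, where 1.15% of all tested rows were marked. Zfp760, a KRAB-like gene whose start lies at -26.1 kb from that of Zfp229, was at 12.8 FPKM in control and 10.8 FPKM in knockdown cells. Zfp948 was at 7.94 and 9.73 FPKM, Zfp820 at 5.30 and 5.65 FPKM, and Zfp942 at 6.93 and 8.31 FPKM. Zfp760 and 3110052M02Rik (5.34 and 4.25 FPKM) were lower in the knockdown, and the 9 others were higher.

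**Figure D3:**
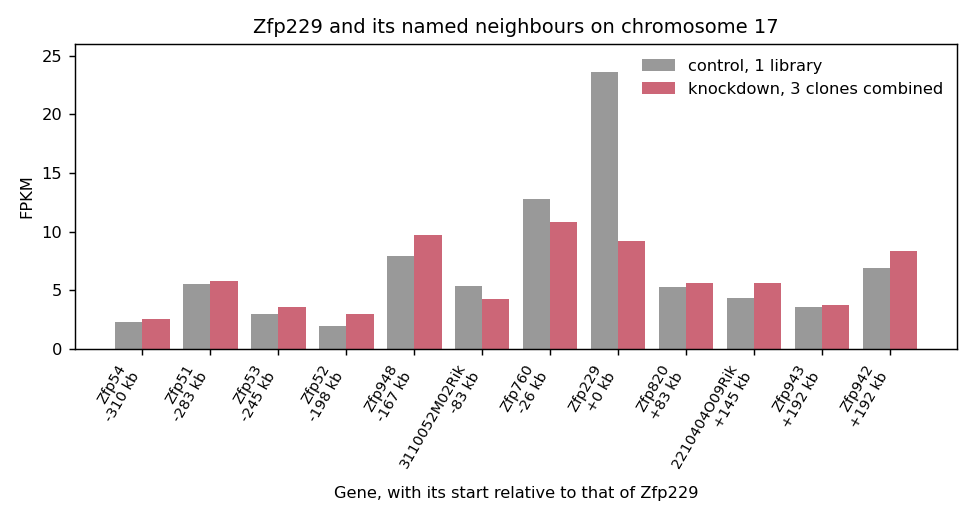
Pairs of bars give the FPKM of Zfp229 and the 11 named rows at 1 FPKM or more within 500 kb, with the control library in grey and the 3 combined knockdown clones in red, ordered by the distance of their start from that of Zfp229 in kb. The bars of Zfp229 are 23.6 and 9.18 FPKM high, and the 11 others differ by log2 folds between -0.27 and 0.41.

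The members nearest to Zfp229 in both levels, by the distance between their log2 levels in the 2 conditions, were Zfp459 (distance 0.63), Zfp704 (0.68), Zfp266 (0.76), Zfp346 (0.77) and Zfp523 (0.79). Zfp459 was at 19.8 FPKM in control and 14.2 FPKM in knockdown cells, and Zfp704 at 18.9 and 14.5 FPKM. This likeness rests on 2 values per gene, and since it was set by both levels the direction of these genes follows from the choice.

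The 3 members past 1.5-fold in the upward direction were not marked. Zfp488, which acts with Olig2 in oligodendrocyte development, was at 8.93 FPKM in control and 15.5 FPKM in knockdown cells, a log2 fold of 0.73 for which the authors' deposited table gives p = 0.00995 and q = 0.25. Of the 50-base windows of Zfp488, 15.0% occur in other genes. Zfp800 was at 2.80 and 5.13 FPKM (0.69), and Zfp365, a DISC1-binding protein in which no C2H2 finger was found, at 3.63 and 6.23 FPKM (0.64). Both entered the set through their knockdown level, since their control level was below 5 FPKM. Relative to the median of the other genes on its own chromosome, Zfp800 (chromosome 6) had a log2 fold of 0.42 and Zfp365 (chromosome 10) of 0.85.

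The other largest upward differences were those of Zfp961, Zfp637, Zfp97, Zfp593, Zfp617, Zfp286 and Zfp35, with log2 folds between 0.35 and 0.44. Zfp637, at 4.82 FPKM in control and 6.65 FPKM in knockdown cells, lies on chromosome 6 and had a log2 fold of 0.12 relative to the other genes there. Zfp961, a KRAB-like gene and the most abundant of these, was at 40.1 FPKM in control and 54.8 FPKM in knockdown cells. After Zfp229, the largest downward differences were those of Zfp395, Zfp358, Zfp414, Zfp873, Zfp459, Zfp938, Zfp142, Zfp383 and Zfp36, with log2 folds between -0.55 and -0.43. Zfp395 was at 8.63 and 5.58 FPKM, and the authors' deposited table gives it q = 0.64. Zfp358 was at 10.7 and 7.17 FPKM and Zfp414 at 13.2 and 8.86 FPKM. Zfp142, the member with the most fingers (40), was at 11.0 and 7.75 FPKM. The locus of Zfp142 is shared with 4 other rows, among which reads may have been split. None of these 16 genes was marked.

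Of the 8 most abundant members, 7 had log2 folds between -0.21 and 0.23. Zfp57, the KRAB protein that keeps imprinted regions methylated, was the highest at 170 FPKM in control and 161 FPKM in knockdown cells. Its locus is shared with 2 other rows of the table, among which reads may have been split. Zfp207 (BuGZ), a spindle and kinetochore protein, followed at 146 and 142 FPKM. Zfp534 was at 67.0 and 77.6 FPKM, Zfp106 at 66.4 and 65.3 FPKM, and Zfp740 at 61.6 and 72.6 FPKM. Of the 50-base windows of Zfp534, 68.4% occur in other genes, so its level is uncertain. Zfp568, which represses a placental transcript of Igf2, was at 53.8 and 56.6 FPKM, and the ES cell transcription factor Zfp281 at 52.4 and 45.1 FPKM. The eighth, Zfp961, was the exception at 0.44.

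Genes with known roles were followed in 4 lists, and at 5 FPKM 0 of their members were marked, 0 had an unadjusted p under 0.05 in the authors' deposited table and 0 passed 1.5-fold. Of all genes at 5 FPKM, 1.35% were marked higher and 0.275% lower, so 0 marked in lists this short is near that share. A deposited p under 0.05 was held by 8.34% of all genes, and 5.23% and 3.63% passed 1.5-fold upward and downward. Of 7 KRAB genes for imprints and retroelements, 6 were found, with a median log2 fold of 0.01 and 3 of 6 above 0. Zfp445, which acts with Zfp57 on imprints, was at 34.2 FPKM in control and 32.7 FPKM in knockdown cells. Zfp809, a silencer of murine leukemia proviruses, was at 15.5 and 18.7 FPKM. Zfp932, which represses endogenous retroviruses, was at 20.1 and 22.9 FPKM, and Zfp819 at 5.14 and 4.95 FPKM. The log2 folds of these 6 genes ran from -0.08 to 0.26.

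Among 15 expressed genes of self-renewal and development, 7 were higher and 8 lower in the knockdown, with a median log2 fold of -0.02. The lowest was Zfp219 at 43.0 FPKM in control and 33.9 FPKM in knockdown cells (-0.34), and the highest Zfp384 at 19.8 and 24.3 FPKM (0.29). The locus of Zfp219 is shared with 3 other rows, among which reads may have been split. Zfp384 lies on chromosome 6, and relative to the other genes of its chromosome its log2 fold was 0.02, below those of Zfp296 (0.27) and Zfp462 (0.25). Zfp296, an ES cell factor, was at 41.3 and 48.9 FPKM. Zfp706, which counters self-renewal, was at 40.7 and 35.8 FPKM. Zfp462, a partner of the H3K9 methyltransferases in heterochromatin, was at 11.7 and 14.3 FPKM, and Zfp143, an activator of housekeeping promoters, at 9.50 and 10.5 FPKM. With 1 value per condition, the order of these genes by log2 fold has no error attached.

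The 9 genes found that act on RNA or ribosomes had a median log2 fold of -0.04, with 3 above 0. Zfp36 (tristetraprolin), a CCCH protein that promotes decay of AU-rich mRNA, was at 6.94 FPKM in control and 4.90 FPKM in knockdown cells. Zfp598, a ubiquitin ligase for collided ribosomes, was at 40.9 and 38.9 FPKM. The ribosome assembly factors Zfp622 and Zfp593 were higher, at 24.5 and 30.6 FPKM and at 5.13 and 6.94 FPKM. Of 5 expressed genes for chromatin and ubiquitin-like pathways 4 were lower, with a median of -0.06. Zfp451, a SUMO ligase, was at 35.0 and 33.5 FPKM. Zfp532, a partner of Zfp592 and Zfp687 in a chromatin reader complex, was the 1 above 0, at 17.5 and 20.2 FPKM.

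The mRNAs of proteins through which KRAB zinc fingers silence chromatin were expressed in both conditions, with larger levels from 10.8 FPKM (Pphln1) to 533 FPKM (Sumo2) among the 24 rows at 5 FPKM. The list of 24 genes had 25 tested rows, as Cbx1 has a pair of them, and 0 were marked in the authors' deposited table, where 1.15% of all tested rows were marked. Uhrf1 was the 1 row with an unadjusted p under 0.05. Their median log2 fold was 0.09, and 18 of the 24 rows at 5 FPKM were above 0, beside 51.2% of all genes at 5 FPKM. Trim28, the corepressor that binds the KRAB box, was at 454 FPKM in control and 405 FPKM in knockdown cells. Setdb1, the H3K9 methyltransferase, was at 29.1 and 30.2 FPKM. Uhrf1, which brings DNA methyltransferase to replicating DNA, was the lowest at 126 and 91.1 FPKM, a log2 fold of -0.47 for which the authors' deposited table gives p = 0.0367 and q = 0.487. Smarcad1, a chromatin remodeller that works with Trim28, was the highest at 62.9 and 83.6 FPKM (0.40) and lies on chromosome 6. Atf7ip (0.31), Chd4 (0.21) and Cbx3 (0.21) lie there too, where 83.4% of the expressed genes other than Zfp members were higher.

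A KRAB-like box ahead of the first finger was found in 69 members, or 41.6%. These had a median of 12 fingers (2 to 23), against 7 fingers (0 to 40) in the 97 members where this pattern found no box. Among the 97, a looser pattern also found the box in Zfp51, Zfp58, Zfp61, Zfp68, Zfp84, Zfp317 and Zfp707. The median log2 fold was 0.01 in KRAB-like members and -0.04 in the others, with SDs over genes of 0.28 and 0.25. Levels were also alike, at 9.65 and 9.49 FPKM for KRAB-like members and 11.0 and 11.1 FPKM for the others in control and knockdown. With the looser pattern the median log2 folds were 0.001 with a match and -0.03 without. Zfp229 was the 1 KRAB-like member past 1.5-fold, and neither pattern found the box in the 3 upward members.

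By number of fingers, the 36 members with 1 to 5 had a median log2 fold of -0.05, the 55 with 6 to 10 of -0.05 and the 70 with more than 10 of 0.04. In the last class 40 of 70 were higher in the knockdown, and in the first 14 of 36. No test of the difference between these classes was made. The pattern for C2H2 fingers found none in 5 members, which were Zfp36, Zfp839, Zfp185, Zfp330 and Zfp365.

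Members lay on 19 chromosomes, with 33 on chromosome 7 and 27 on chromosome 17. Of these 60 genes 35 were KRAB-like. The median log2 fold was -0.05 on chromosome 7 and -0.07 on chromosome 17, beside -0.03 and -0.01 for the other expressed genes of the same chromosomes. On chromosome 17, 16 of 27 members were lower in the knockdown, and on chromosome 7, 21 of 33. Among the other expressed genes, 50.6% were lower on chromosome 17 and 54.0% on chromosome 7, and the difference was not tested.

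On chromosome 6 all 9 members were higher in the knockdown, with a median log2 fold of 0.25. The other 398 expressed genes of chromosome 6 had a median of 0.27, and 83.4% of them were higher. The members there were Zfp239, Zfp746, Zfp422, Zfp212, Zfp777, Zfp956, Zfp384, Zfp637 and Zfp800, with log2 folds from 0.14 to 0.69. On chromosome 10, 2 of 3 members were lower (Zfp873 at 8.22 and 5.59 FPKM, Zfp938 at 11.5 and 8.12 FPKM), as were 70.2% of the 453 other genes there. The part of these shifts of whole chromosomes in the members' values was not tested. With each gene set against the median of the other genes on its chromosome, the members' median was -0.02, their SD was 0.25, and 2 genes stayed past 1.5-fold upward and 1 downward.

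**Figure D4:**
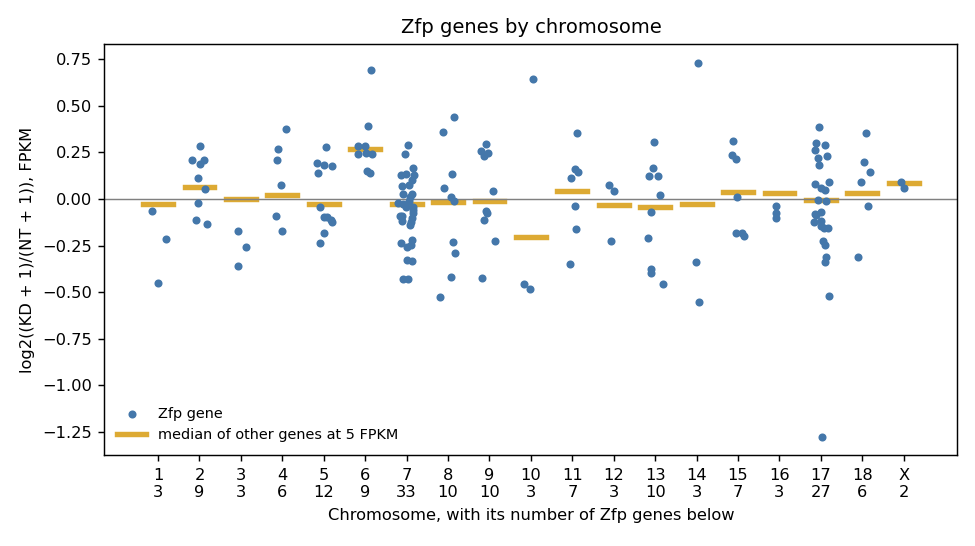
Log2 fold of the members on each chromosome, beside the median of the other genes of that chromosome at 5 FPKM or more. The 9 members on chromosome 6 all lie above 0 around the chromosome's own median of 0.27, and Zfp229 is the lowest point, on chromosome 17.

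Runs of at least 3 members with less than 500 kb between neighbours formed 12 clusters that held 55 members (33.1%). They took in 33 of the 69 KRAB-like members (47.8%) and 22 of the 97 others (22.7%). The median log2 fold was -0.01 inside the clusters and -0.02 outside them. In 3 of the 12 clusters all members lay on the same side of 0. These were 3 genes on chromosome 13 (Zfp808, Zfp935 and Zfp934, 0.13 to 0.31), 4 on chromosome 6 (Zfp212, Zfp956, Zfp777 and Zfp746, 0.15 to 0.29) and 3 on chromosome 7 (Zfp606, Zfp329 and Zfp110, -0.22 to -0.01). Zfp808 and Zfp934 have 43.1% and 44.1% of their 50-base windows in other genes, each sharing most with the other. Zfp935 has 100%, mostly with Gm49359 (93.9%), and the locus of Zfp808 is shared with 18 other rows. These may not be separate readings, and the part of shared reads in them was not tested. The part of chance in such short runs was not tested.

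The cluster of Zfp229 (chromosome 17, 21145904 to 23004240, mm9) held 9 members, of which 8 were KRAB-like and Zfp51 matched the looser pattern only. The median log2 fold of the 9 was 0.06, with 5 above and 4 below 0. Zfp160, at its start, was at 10.08 FPKM in control and 10.03 FPKM in knockdown cells, and Zfp51 at 5.55 and 5.82 FPKM. Zfp944 was the highest of them at 5.01 and 6.36 FPKM (0.29), and Zfp945, at the far end, was at 9.89 and 8.99 FPKM. A second cluster of 9 on the same chromosome (32902441 to 33769573), with 8 KRAB-like genes, had a median of -0.12 and 7 members below 0, from Zfp414 at -0.52 to Zfp81 at 0.18. The cluster of 9 on chromosome 7 (30553570 to 30954856), which includes Zfp568, had a median of 0.03, with Zfp383 lowest at 10.9 and 7.82 FPKM (-0.43) and Zfp566 highest at 8.16 and 10.2 FPKM (0.29).

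The direction of the difference was also read against sequence that members share with other genes. In 29 members at least 5% of the 50-base windows of the annotated transcripts also occur in another gene, and 23 of these (79.3%) had a log2 fold above 0, with a median of 0.18. Of the 137 members below that limit 57 (41.6%) were above 0, with a median of -0.05. The 5% limit was chosen after the data had been seen. At limits of 1%, 2%, 10%, 20% and 40% the share above 0 was 60.4%, 73.5%, 78.3%, 76.5% and 81.8%, with 48, 34, 23, 17 and 11 members at or above the limit. Relative to the other genes of each chromosome, 20 of the 29 were above 0, with a median of 0.16. Gene models at a member's own locus were not set apart from copies elsewhere in this count. Reads that fit several genes can be divided among them in the FPKM, and the part of that step in these values was not tested.

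Zfp97 and Zfp960 on chromosome 17 are near copies, sharing 77.1% and 78.2% of their windows with each other. Zfp97 was at 11.3 FPKM in control and 15.1 FPKM in knockdown cells, and Zfp960 at 9.42 and 11.9 FPKM. Zfp935, with all of its windows found elsewhere (100%), was at 7.36 and 9.34 FPKM, and Zfp932 (55.5%) at 20.1 and 22.9 FPKM. Zfp82 (94.4%) and Zfp58 (52.2%) were the 2 of the 11 members at 40% or more that were lower in the knockdown, at 5.59 and 4.25 FPKM and at 5.63 and 5.33 FPKM. Zfp82 and Zfp58 share most with Gm26920 (91.6%) and Gm26965 (52.1%). Whether those are copies or gene models at the same locus was not tested. The levels of these members are uncertain, and Zfp229, with 0.141% of its windows shared, is not among them.

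**Figure D5:**
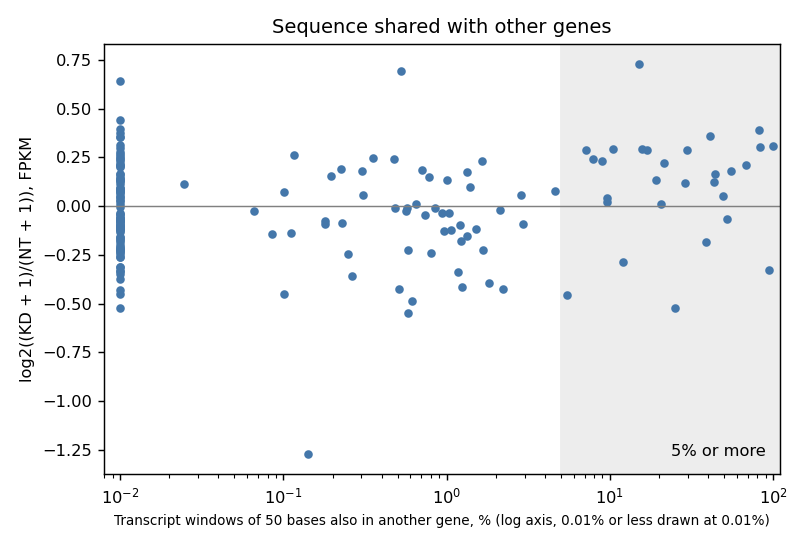
Log2 fold of the 166 members against the percentage of their 50-base transcript windows that occur in another gene, on a logarithmic x axis with values of 0.01% or less drawn at 0.01%. In the shaded range of 5% or more, 23 of 29 points lie above 0, and 57 of 137 lie above 0 outside it.

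Promoters of 136 of the 166 members were matched by symbol in RefSeq (GRCm38.p6), as 300 bases from 250 before to 50 after the start. A gene can have several promoters (171 for the 136 members, 70 for the KRAB-like and 101 for the others). For each gene the promoter with the most CpG dinucleotides was taken. The median over members of this highest number was 16. It was 12 in 59 KRAB-like genes and 21 in 77 other members, beside 23 in all 6657 matched genes at 5 FPKM and 8 in all 27025 genes with a promoter. KRAB-like members thus lay between the expressed genes and the whole promoter set in this count.

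At the 5 FPKM limit, the members just inside were Zfp800, Zfp819 and Zfp407, with higher levels of 5.13, 5.14 and 5.23 FPKM. Just outside were Zfp867, Zfp579 and Zfp771, at 4.99, 4.70 and 4.69 FPKM. The 114 Zfp rows between 1 and 5 FPKM had a median log2 fold of 0.01 and an SD over genes of 0.26, and 0 of them were marked in the authors' deposited table. Of all tested rows 1.15% were marked. Loci of 26 members overlap another row of the table, and the use of strand in the counting is not given in the sources used here, so reads of overlapping genes may be mixed in those members.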

How the data were processed

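RNA sequencing of 4 mouse ES cell libraries (1 control, 3 knockdown clones) was processed with TopHat, Cufflinks and Cuffdiff on mm9, per the submitters' processing notes. Versions, options and annotation: not given in the sources used here. Per the file headers, each gene has 1 deposited FPKM for a condition named treated and 1 for control. Treated was taken as the knockdown clones combined by the authors. The p-value and q-value are those of Cuffdiff in the authors' deposited table, over 15477 tested rows with 178 marked. Each condition has 1 value, so no test was added. All columns used were mapped to a condition, and 0 were left unmapped.

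Fold changes were log2((knockdown FPKM + 1)/(control FPKM + 1)), which understates changes of low genes. The members, lists and rules were chosen with earlier results of these data known. Named genes were marked members, the 10 largest differences each way, the 8 most abundant, the list genes, the Zfp229 cluster and the 3 genes on each side of the 5 FPKM limit. Other names were chosen after their values were seen.

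Protein features came from the longest open reading frame of GENCODE M21 protein-coding transcripts, in place of the RefSeq proteins first planned. A finger was a pair of cysteines 2 to 4 residues apart, 12 residues, and a pair of histidines 3 to 5 apart. A cysteine was also accepted in place of the last histidine. The KRAB-like box was a short pattern of the A box ahead of the first finger, set after the sequences and the members' folds had been seen, without use of the folds. A looser pattern was run as an alternative, and members called KRAB-like are those of the stricter one. Shared sequence was counted in 50-base windows against all other GENCODE genes, including any that overlap the member's own locus. The feature and median code was tested on simulated data. Python 3.11.15, pandas 2.3.3, numpy 2.4.6, Biopython 1.88 and matplotlib 3.10.9 were used.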

Additional observations from a re-analysis of the deposited data

How the results depend on the processing

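Over the medians and counts of the groups described, 120 of 131 alternative values stayed within 0.1 (log2) or 1.5 times (counts) of the reported one and 11 moved. The sign of a median changed in 3 of them: chromosome 8, near 0 as reported, was at 0.01 with a minimum of 1 FPKM and 0.10 with 10 FPKM, and the clustered members at 0.03 with a largest gap of 250 kb. The 3 members past 1.5-fold upward became 0 with a pseudocount of 5 or a limit of 2-fold, 1 with a minimum of 10 FPKM or without chromosomes 6, 10 and Y, and 5 with no minimum. The 1 downward became 2 with a pseudocount of 0.1 or with letter suffixes allowed in the symbol, which adds Zfp280b, and 3 with a minimum of 1 FPKM or none. At a minimum of 10 FPKM the median was -0.21 on chromosome 13 and 0.11 on chromosome 15. The log2 fold of Zfp229 was -1.01 with a pseudocount of 5. Among single genes and the shared-window share, 25 of 257 alternative values moved by 0.1 (log2) or by 10 percentage points, and in 2 the sign changed, for Zfp110 and Zfp160, both near 0, when centred on their chromosomes. Centring on each chromosome, the other shared-window limits and the pseudocounts for the KRAB partners were added after the data had been seen. No paired analysis was possible because there is 1 control library and the clones are given as 1 combined value. For the same reason no clone was left out in turn, and protein classes were not run at a minimum of 1 FPKM. Depth limits the low members most, where the implied counting error reached 7.73%, and the spread between cultures has no estimate.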

Other observations

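Rows without a gene symbol lie close to Zfp229. Within 50 kb of its start there are 4, and all 4 were lower in the knockdown, with 0 marked in the authors' deposited table. The row at -4.95 kb from the start of Zfp229 was at 0.272 FPKM in control and 0.0475 FPKM in knockdown cells. Those at 29.9 kb and 35.5 kb were at 0.405 and 0.128 FPKM and at 1.10 and 0.471 FPKM, and the row at -30.0 kb was at 0.496 and 0.466 FPKM. Unnamed rows farther out, within 500 kb of Zfp229, went both ways. Those at 282.8 kb and 283.5 kb were lower, at 0.872 and 0.150 FPKM and at 1.17 and 0.610 FPKM. At 192 kb a row was lower, at 0.616 and 0.301 FPKM, and another higher, at 2.04 and 2.32 FPKM. The row at -211 kb was higher, at 0.494 and 0.525 FPKM. A fall was thus not particular to the rows within 50 kb. These levels are low, and the rows within 50 kb were singled out after their values were seen.

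Genes with a letter after the digits were outside the choice of members. There were 13 at 5 FPKM, and 0 were marked in the authors' deposited table, where 1.35% of all genes at 5 FPKM were marked higher and 0.275% lower. Zfp280b was the lowest at 22.0 FPKM in control and 14.3 FPKM in knockdown cells (log2 fold -0.59), and Zfp385a the highest at 5.33 and 9.12 FPKM (0.68). The mRNA decay factors Zfp36l1 and Zfp36l2, relatives of Zfp36, were at 49.9 and 38.0 FPKM and at 14.9 and 15.3 FPKM. Below 5 FPKM, Zfp703, a transcriptional corepressor, was at 0.412 and 1.65 FPKM, and the authors' deposited table gives it p = 0.0114 and q = 0.271.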
